A study of Mus musculus with 28 samples.

Results

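Bone marrow endothelial cells (ECs) line the vessels of the marrow, and the comparison described here is between ECs of mice that carry the internal tandem duplication of Flt3 (Flt3 ITD/ITD) and ECs of wild-type mice (Flt3+/+). The members are the 10 EC libraries of the 28 libraries in the series, 5 per genotype, each from 1 mouse, and all 25251 genes in the table were considered. The other 18 libraries are 10 of mesenchymal stromal cells (MSCs) and 8 of mononuclear cells (MNCs), and they enter only where the ECs are set against them. All mice were C57BL/6 and 8 to 10 wk old, and the sex was not given in the sources used here. The Flt3-ITD is a germline knock-in, so every cell of a Flt3 ITD/ITD mouse carries it on both alleles, ECs as well as blood cells. A difference in ECs therefore cannot be told apart as arising in the ECs or in the cells around them. Bones were crushed and the fragments digested with collagenase, and 100 cells with the surface profile CD45-Ter119-CD31+ were sorted per library into lysis buffer. The labels call the source bone lining cells, so the ECs are those released from bone, and arterial, sinusoidal and venous ECs are mixed within each library.

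Marrow vessels carry blood through the bone, hold hematopoietic stem cells in their neighborhood and regulate the passage of leukocytes. Arterial and sinusoidal ECs supply ligands such as KIT ligand, which stem cells need. FLT3 is a receptor tyrosine kinase of hematopoietic progenitors, and the internal tandem duplication, a frequent mutation of acute myeloid leukemia, makes it signal without ligand. In mice the knock-in produces a myeloproliferative disease.

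The sorted cells had the transcripts of ECs. Values for single genes are RPKM, which divide a gene's reads by its transcript length and by the size of the library. Pecam1, which encodes the sorting antigen CD31, lay between 182 and 360 RPKM in the 10 EC libraries, between 0 and 1.93 in MSCs and between 6.47 and 23.6 in MNCs. Cdh5, which encodes VE-cadherin of endothelial junctions, lay between 165 and 252 in ECs, at most 0.19 in MSCs and at most 1.43 in MNCs. Tek, the angiopoietin receptor TIE2, lay between 79.8 and 162 in ECs, between 4.94 and 19.6 in MSCs and at most 0.02 in MNCs. For all 3 genes every EC library lay above every library of the other populations. Of 30 genes that most ECs express, 28 had every EC library above every MSC library, where 4.75% of the 16897 genes tested over all libraries did. The same held for 29 of the 30 genes against MNCs, where 9.12% of the genes did. The exceptions were Erg and Cd34 against MSCs and Erg against MNCs. Ptprc, which encodes the pan-leukocyte antigen CD45, lay between 125 and 161 RPKM in MNCs and at most 0.05 in 9 EC libraries. In the remaining library, replicate 2 of Flt3 ITD/ITD, Ptprc was 4.57, from 778 counts.

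**Figure D1:**
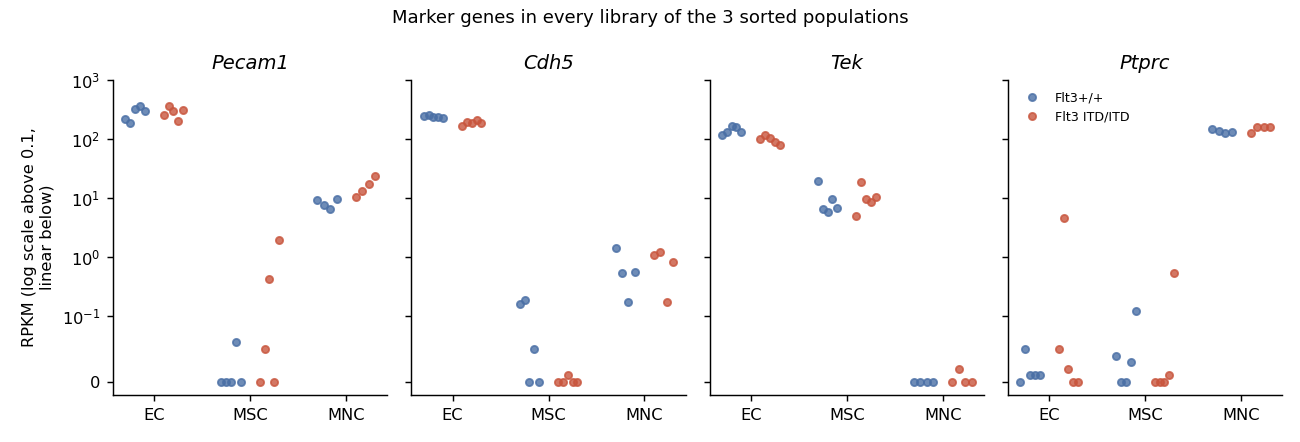
RPKM of Pecam1, Cdh5, Tek and Ptprc in every library, by population and genotype. The vertical axis is logarithmic above 0.1 RPKM and linear below it, and each point is the library of 1 mouse. Pecam1, Cdh5 and Tek were higher in all 10 EC libraries than in any MSC or MNC library, and Ptprc was highest in MNCs, with 1 Flt3 ITD/ITD EC library at 4.57.

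Total counts per library lay between 13155871 and 33880743 for Flt3+/+ and between 6377013 and 30887046 for Flt3 ITD/ITD. Between 15538 and 17350 genes had a count in Flt3+/+ libraries, and between 14406 and 17737 in Flt3 ITD/ITD libraries. Rank correlations between EC libraries over genes lay between 0.70 and 0.76. A pair of libraries stood apart by transcripts of neutrophils and erythroid cells. The summed RPKM of 10 neutrophil genes was 30230 in Flt3 ITD/ITD replicate 2 and 1342 in Flt3+/+ replicate 1, and at most 97.9 in each of the others. The sum of 10 erythroid genes was 4840 in Flt3+/+ replicate 1 and 2621 in Flt3 ITD/ITD replicate 2. The sum of 11 macrophage genes lay between 10.4 and 36.1 in Flt3+/+ and between 33.1 and 211 in Flt3 ITD/ITD libraries (exact permutation test, two-sided, p = 0.0238), with C1qc and Fcgr1 at 0 counts in every EC library. This p is not adjusted for the 13 marker lists. Of the macrophage genes 4 passed the filter on low counts, and 0 of them reached an unadjusted p below 0.05 in the edgeR test. For the sums of 10 other marker lists, covering leukocytes in general, B cells, T and NK cells, megakaryocytes, marrow stroma, osteoblasts, mural cells, skeletal muscle, lymphatic ECs and sex, the genotypes overlapped (exact permutation p from 0.0952 to 0.976). The natural killer cell gene Klrd1 had no count in any EC library. Counts of Xist exceeded those of Y-linked genes in Flt3+/+ replicates 2 and 3 and in Flt3 ITD/ITD replicate 3, so the sexes were mixed in both groups. For each topic list the median log2 fold change without the pair of libraries with blood transcripts is given beside the one over all 10. The libraries kept were not free of blood transcripts. The pan-leukocyte sum was 23.2 RPKM in Flt3+/+ replicate 1, which was left out. It was 93.7 in Flt3+/+ replicate 2 and 246 and 111 in Flt3 ITD/ITD replicates 3 and 5, which were kept.

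Flt3 itself was barely detected. Its counts were 0, 1, 1, 0 and 0 in Flt3+/+ ECs and 0, 0, 148, 1 and 63 in Flt3 ITD/ITD ECs. The counts of replicates 3 and 5 corresponded to 1.37 and 0.65 RPKM, and neither library was the one with Ptprc transcripts. The summed RPKM of 15 pan-leukocyte genes was 246 and 111 in these libraries, below the 682 of replicate 2 and above the Flt3+/+ libraries, which reached at most 93.7. The part of blood cells in the counts of Flt3 was not tested. The duplication is not a deletion, so the level of Flt3 does not check the genotype.

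Across all genes few differences between the genotypes passed the edgeR test in these 100-cell libraries. After low counts had been filtered, 12351 genes were tested with the quasi-likelihood test of edgeR, and calls required both an adjusted p below 0.1 and mean RPKM that differed at least 2-fold. That rule called 1 gene, 2210404O07Rik, which is 0.0081% of the genes tested. At an unadjusted p below 0.05, 309 genes (2.5%) had higher values with Flt3-ITD and 307 were lower (2.49%), together 616 genes or 4.99%. The counts of each gene list below are to be read beside these shares of all genes. The median log2 fold change over all genes was -0.01, and 49.1% of genes were higher. The RPKM of all 5 Flt3 ITD/ITD libraries lay above those of all 5 Flt3+/+ libraries for 74 genes (0.599%) and below them for 67 genes (0.542%). Labels assigned at random would give 0.397% in each direction. The study accepted genes past either DESeq2 or edgeR and did not name the edgeR test. The quasi-likelihood test was chosen here. With DESeq2, 176 genes were called as higher (1.22% of 14446) and 178 as lower (1.23%). Of these, 180 were genes that the filter had removed for edgeR. Adjusted p below are those of edgeR unless another test or setting is named. A bulk library cannot tell fewer cells of a kind from less RNA per cell, and this applies to each difference below.

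The precision of a gene depended on its level. The biological coefficient of variation was 0.984. The median coefficient of variation within a genotype was 97.4% for the 3441 genes with a mean of 1 to 5 RPKM and 25.4% for the 925 genes above 100 RPKM. The median standard error of the log2 fold change was 1.08 and 0.25 in these ranges. The 1075 genes below 1 RPKM that passed the filter on counts did not follow this order, with a median coefficient of variation of 65.3% and a median standard error of 0.66. The share of genes at an unadjusted p below 0.05 was 8.76% above 100 RPKM and 3.36% between 5 and 20 RPKM. Of the genes with 1 to 5 RPKM, 958 had no count in at least 1 library.

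**Figure D2:**
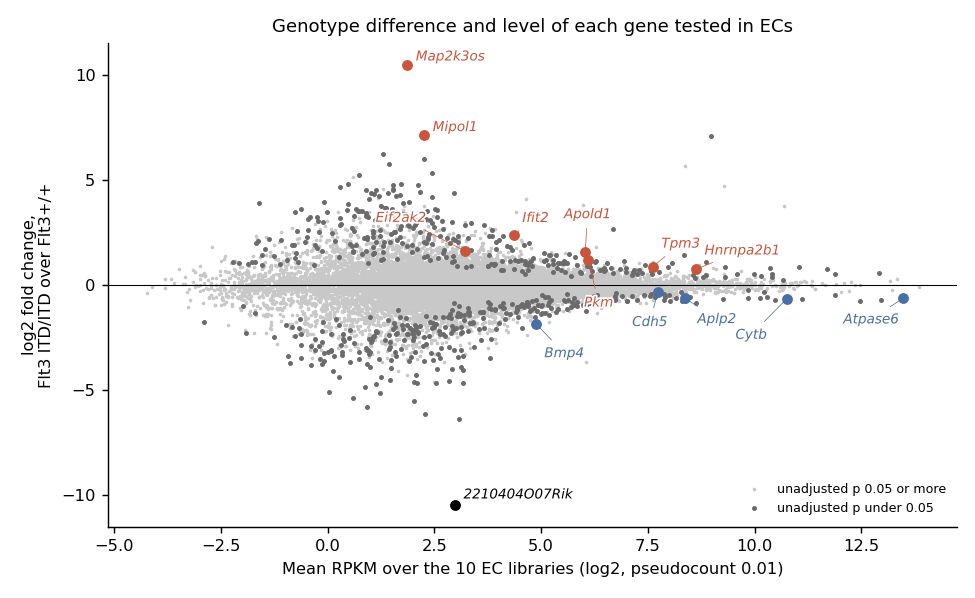
Log2 fold change of Flt3 ITD/ITD over Flt3+/+ ECs against the log2 mean RPKM of the 10 libraries, 1 point per gene tested. Dark points have an unadjusted p below 0.05, and colored points are genes described in the text. The spread is widest between 1 and 5 RPKM and narrows toward high levels, and 2210404O07Rik lies at the bottom, at a fitted log2 fold change of -10.5.

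2210404O07Rik was the only gene that passed the edgeR test. RefSeq lists it as a synonym of Smim24, a small integral membrane protein, at chr10:81393064-81395079 of GRCm38. Its RPKM were 15.8, 15.6, 17.8, 13.7 and 15.97 in the Flt3+/+ libraries, from 119, 197, 142, 99 and 298 counts, and it had no count in any of the 5 Flt3 ITD/ITD libraries. The Flt3+/+ libraries lay within a narrow range (mean 15.8 ± 1.47, SD, n = 5). Relative to the level that 3 counts per library would give, the gene fell at least 41.9-fold (adjusted p = 0.0765). In Flt3+/+ MSCs it had no count in any library, and in Flt3 ITD/ITD MSCs it was 11.4 and 0.17 RPKM in replicates 4 and 5 and 0 in the others. In MNCs all libraries had it, between 9.85 and 22.1 RPKM, in both genotypes. When any 1 EC library was left out, its adjusted p lay between 0.12 and 0.405, and with genes of low count kept in the test it was 0.287.

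Interferon response genes formed the topic with the largest median shift among 29 gene lists written for this comparison. Interferons bind receptors on the cell surface, and the signal reaches the promoters of a common set of antiviral genes through a factor that contains IRF9. Of the 60 that were tested, 51 had higher values in Flt3 ITD/ITD ECs and 9 lower, with a median log2 fold change of 0.57, where 49.1% of all genes were higher and the median was -0.01. None passed the adjusted threshold in the edgeR test, while DESeq2 called 2 as higher and none as lower. At an unadjusted p below 0.05, 7 were higher and none was lower, where 2.5% of all genes were higher and 2.49% lower. Without the pair of libraries with blood transcripts, 50 of 59 were higher, the median was 0.56 and 7 were again past the unadjusted threshold. The macrophage sum had a higher mean in Flt3 ITD/ITD ECs, with overlapping ranges. It still lay between 33.1 and 78.2 RPKM in the 4 Flt3 ITD/ITD libraries kept, and its part in the interferon values was not tested. Over 22 alternative settings the median lay between 0.44 and 0.63 and the share of higher genes between 78.3% and 88.3%. The list was written after interferon genes had been seen to differ in these libraries, so its direction is not independent evidence.

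Among these genes Ifit2, which restrains translation of viral RNA, differed most clearly. It lies at chr19:34550694-34576419 of GRCm38. Its RPKM were 6.63, 7.23, 9.23, 7.16 and 2.5 in Flt3+/+ ECs and 26.5, 35.8, 45.1, 38.1 and 27.0 in Flt3 ITD/ITD ECs. Each Flt3 ITD/ITD library lay well above each Flt3+/+ library, with a log2 fold change of 2.42 (SE 0.369, unadjusted p = 4.62e-05, adjusted p = 0.19). DESeq2 called Ifit2 as higher (adjusted p = 1.87e-07). Eif2ak2, the kinase PKR that stops translation when it binds double-stranded RNA, was 3.15, 2.80, 6.74, 7.52 and 2.89 RPKM in Flt3+/+ and 18.5, 13.5, 18.7, 8.80 and 10.7 in Flt3 ITD/ITD ECs. The groups did not overlap, although the lowest Flt3 ITD/ITD library was close to the highest Flt3+/+ library (log2 fold change 1.63, SE 0.436, adjusted p = 0.74). Eif2ak2 was called as higher by DESeq2 (adjusted p = 0.0108). Both genes are also on the list that the study drew from these samples.

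The other 5 genes past the unadjusted threshold showed the same direction with more spread. Irf9, the DNA-binding subunit of the interferon-activated factor, was 6.52 to 30.1 RPKM (median 18.8) in Flt3+/+ and 31.5 to 40.7 (median 39.8) in Flt3 ITD/ITD ECs. Ifit1, a relative of Ifit2 that binds viral RNA, was 4.20 to 55.5 (median 27.9) and 56.3 to 183 (median 77.7), so that the groups were separated by less than 1 RPKM. Usp18, which limits interferon signaling, was 12.4 to 45.8 and 43.4 to 76.9 (log2 fold change 1.08, SE 0.377). Here 1 Flt3+/+ library lay within the range of the Flt3 ITD/ITD libraries. Cxcl10, a chemokine that attracts T cells, was 33.1, 68.3, 5.77, 0.34 and 31.5 in Flt3+/+ and 51.9, 196, 189, 371 and 82.1 in Flt3 ITD/ITD ECs (log2 fold change 2.70, SE 1.02, exact permutation p = 0.0159). Psmb8, a subunit of the immunoproteasome, was 120 to 169 and 121 to 263, and 4 of the 5 Flt3 ITD/ITD values were beyond the Flt3+/+ range. Members that did not pass the unadjusted threshold varied in size and spread. Gbp3, a guanylate-binding protein, had 4 Flt3 ITD/ITD libraries above the Flt3+/+ maximum (log2 fold change 1.05, SE 0.525, exact permutation p = 0.0476). The same held for Oas3, a sensor of double-stranded RNA, at a level of 0.31 to 0.46 RPKM in Flt3+/+ and 0.45 to 0.82 in Flt3 ITD/ITD ECs (exact permutation p = 0.0238). Irf7, a transcription factor of the interferon response, had 3 such libraries (log2 fold change 1.02, SE 0.726). The log2 fold change of Isg15, a ubiquitin-like modifier, was 0.29 (SE 0.614). That of Rsad2, which encodes viperin, was 0.04 (SE 0.5) and changed sign under several settings. The ranges of all 5 genes overlapped between genotypes. All were named after their values were seen, so the p-values of Gbp3 and Oas3 are not independent evidence.

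**Figure D3:**
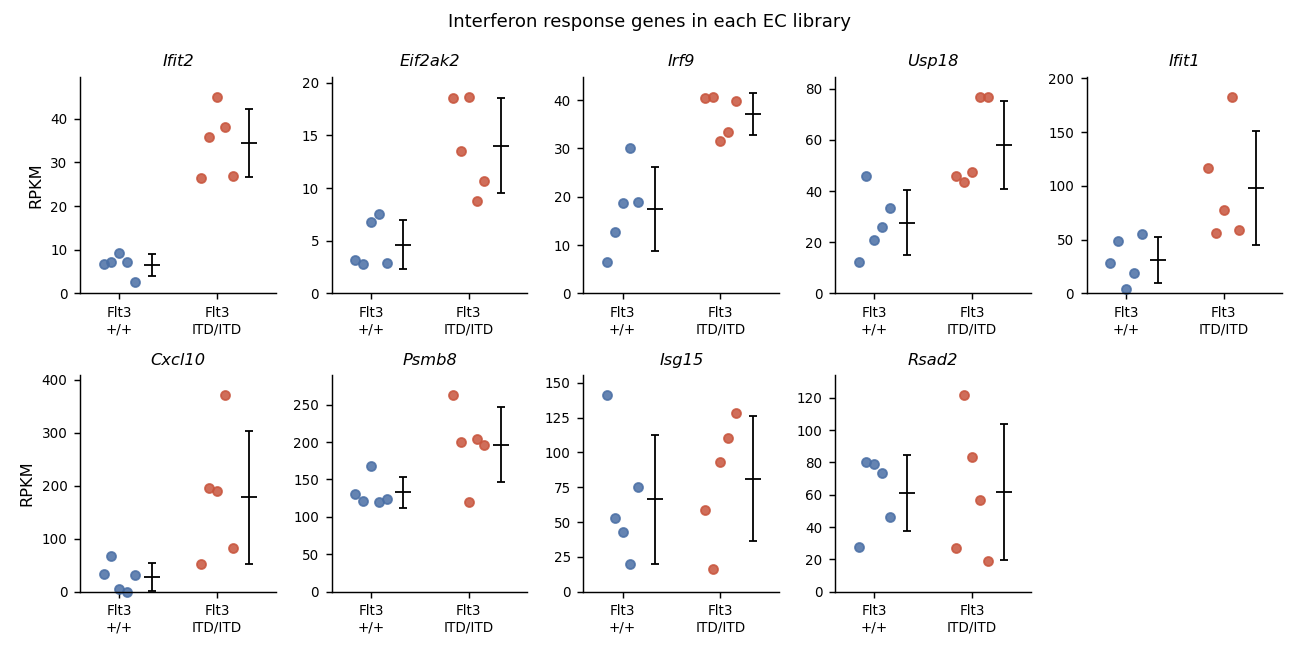
RPKM of 9 interferon response genes in each EC library (points) with the mean and SD of 5 mice per genotype (bars), each panel on its own linear axis from 0. Ifit2, Eif2ak2, Irf9 and Ifit1 did not overlap between genotypes, and Isg15 and Rsad2 overlapped.

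The promoters of interferon genes often hold the element that the interferon-activated factors bind, a pair of GAAA repeats separated by 2 bases. It was searched for on both strands from 250 bases before to 50 bases after each start site, in RefSeq promoters of GRCm38.p6. It was present in 1131 of 32851 promoters (3.44%), and in 25 of 55 promoters of the interferon list (45.5%). These belonged to 24 of 47 genes with a promoter entry (51.1%), where 3.99% of all genes with an entry held it. Of the 7 genes past the unadjusted threshold, 6 had an entry and 3 held the element, Ifit1, Eif2ak2 and Cxcl10. This share, 50%, was near that of the whole list, which contains these genes. With 6 genes it cannot be told whether the element marks those past the threshold. The promoters of these 3 genes are shown to the 30th base of the transcript. The GAAA repeats, or TTTC where the element is on the other strand, are in capitals. Ifit1 is at chr19:34640639-34640918 (plus strand), Eif2ak2 at chr17:78882543-78882822 (minus strand) and Cxcl10 at chr5:92348860-92349139 (minus strand).
Ifit1: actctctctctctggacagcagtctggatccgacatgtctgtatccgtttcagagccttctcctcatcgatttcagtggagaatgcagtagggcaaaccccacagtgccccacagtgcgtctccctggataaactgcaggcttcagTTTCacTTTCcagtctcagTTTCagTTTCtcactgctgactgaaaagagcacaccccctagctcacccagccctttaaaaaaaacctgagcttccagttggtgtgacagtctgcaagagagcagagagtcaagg
Eif2ak2: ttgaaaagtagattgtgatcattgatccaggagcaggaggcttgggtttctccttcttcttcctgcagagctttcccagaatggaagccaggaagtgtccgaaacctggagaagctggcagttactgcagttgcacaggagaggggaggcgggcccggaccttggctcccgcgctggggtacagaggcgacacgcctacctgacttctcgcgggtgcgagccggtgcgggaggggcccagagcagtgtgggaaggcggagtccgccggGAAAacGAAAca
Cxcl10: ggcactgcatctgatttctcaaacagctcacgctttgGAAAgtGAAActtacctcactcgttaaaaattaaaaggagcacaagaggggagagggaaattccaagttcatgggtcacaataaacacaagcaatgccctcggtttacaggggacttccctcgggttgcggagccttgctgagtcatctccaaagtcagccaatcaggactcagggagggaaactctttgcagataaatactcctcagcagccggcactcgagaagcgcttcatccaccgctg
Ifit1 held 2 copies, whose first bases lay 104 and 85 bases before the start site. Cxcl10 held 1 copy 213 bases before the start site, and Eif2ak2 held 1 copy 18 bases after it. None of the 21 immediate-early genes and none of the 14 pan-endothelial genes with an entry held the element, which says only that these letters were not in this window.

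MHC class I genes display peptides to cytotoxic T cells and are themselves induced by interferon, and several are on both lists. Of 21 tested, 16 had higher values with Flt3-ITD, with a median log2 fold change of 0.27, and 3 were past the unadjusted threshold in that direction. Without the pair of libraries with blood transcripts the count was again 16 of 21, with a median of 0.34. H2-K1, a classical class I heavy chain, was 794, 656, 675, 615 and 438 RPKM in Flt3+/+ and 947, 920, 734, 1143 and 737 in Flt3 ITD/ITD ECs (log2 fold change 0.52, SE 0.185, adjusted p = 0.927). Only 1 Flt3+/+ library reached the range of the Flt3 ITD/ITD libraries. H2-D1, the other classical heavy chain, had a log2 fold change of 0.27 (SE 0.109). Of 6 MHC class II genes tested, 1 was higher and 5 were lower, none past the unadjusted threshold, and the median of -0.27 moved between -1.07 and 1.22 over the alternative settings, with -0.035 without the pair of libraries. H2-Eb1 was 0.49, 0.96, 12.2, 1.32 and 0 RPKM in Flt3+/+ and 22.9, 0, 11.9, 27.2 and 7.23 in Flt3 ITD/ITD ECs, so that 2 Flt3 ITD/ITD libraries lay above the Flt3+/+ maximum (exact permutation p = 0.127). H2-DMb1 was 15.4, 18.97, 1.62, 12.3 and 0 in Flt3+/+ and 10.7, 1.88, 0.03, 4.11 and 0 in Flt3 ITD/ITD ECs (exact permutation p = 0.19).

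Genes of TNF and NF-kB signaling more often had higher than lower values, but the one past the unadjusted threshold was lower. Of 37 tested, 24 were higher (64.9%), with a median log2 fold change of 0.19. When the pair of libraries with blood transcripts was left out, 26 were higher, the median was 0.33, and again 1 lower gene was past the unadjusted threshold. In the test over all 10 libraries that gene was Traf1, an adaptor of TNF receptors, at 9.96, 29.97, 9.95, 0.72 and 4.19 RPKM in Flt3+/+ and 0.20, 3.15, 0.02, 0.17 and 0.33 in Flt3 ITD/ITD ECs. The highest Flt3 ITD/ITD value, 3.15, came from the library with neutrophil transcripts. Traf1 was called as lower by DESeq2 (adjusted p = 0.0487). Birc2, an inhibitor of apoptosis that is recruited to TNF receptors, had a log2 fold change of -1.13 (SE 0.553, exact permutation p = 0.0556). Tnf itself was too low to pass the filter, with 0, 0, 2, 1 and 0 counts in Flt3+/+ and 29, 51, 1, 8 and 177 in Flt3 ITD/ITD ECs. No Flt3+/+ library reached 3 counts, and 1 Flt3 ITD/ITD library had a single count (exact permutation p = 0.0238 for RPKM). DESeq2, which tested it, called it as higher (adjusted p = 0.00569), while edgeR without the filter on low counts did not (adjusted p = 0.56). Of 13 chemokines tested, 8 were higher, 2 of them past the unadjusted threshold. Beside Cxcl10 this was Ccl27a, at 0.25, 0, 1.32, 2.37 and 0 RPKM in Flt3+/+ and 3.22, 6.19, 6.98, 5.36 and 7.35 in Flt3 ITD/ITD ECs, with no overlap (log2 fold change 2.82, SE 1.22). Without the pair of libraries with blood transcripts, 7 of 14 chemokines were higher, the median went from 0.24 to 0.043, and 1 was past the unadjusted threshold in each direction.

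Genes that define ECs leaned to lower values in Flt3 ITD/ITD mice. Of 30 pan-endothelial genes, 22 were lower and 8 were higher, with a median log2 fold change of -0.23. At an unadjusted p below 0.05, 6 were lower and 1 was higher, where 2.49% of all genes were lower and 2.5% higher. Of all genes above 100 RPKM, 8.76% were past that threshold in either direction. None of the 30 genes was past the adjusted threshold in the edgeR test. Without the pair of libraries with blood transcripts, 24 of 30 were lower, 6 of them past the unadjusted threshold, and the median was -0.27. The summed RPKM of the 30 genes nevertheless overlapped, being 5128 to 6689 for Flt3+/+ and 4856 to 6118 for Flt3 ITD/ITD (exact permutation p = 0.167).

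Cdh5 showed the tightest separation among them. It was 246, 252, 235, 237 and 225 RPKM in Flt3+/+ and 165, 195, 186, 206 and 182 in Flt3 ITD/ITD ECs. All Flt3 ITD/ITD values were lower, by a log2 fold change of -0.34 (SE 0.111, adjusted p = 0.927). By DESeq2 the adjusted p of Cdh5 was 0.0467, without the 2-fold difference that a call required. Tek was 116, 132, 162, 159 and 128 RPKM in Flt3+/+ and 101, 117, 104, 87.6 and 79.8 in Flt3 ITD/ITD ECs (log2 fold change -0.49, SE 0.159, exact permutation p = 0.0159), with the groups touching at 116 and 117. Ramp2, which forms the adrenomedullin receptor that stabilizes vessels, was 239, 314, 323, 305 and 271 in Flt3+/+ and 135, 188, 235, 191 and 145 in Flt3 ITD/ITD ECs, with no overlap (log2 fold change -0.68, SE 0.204). The 5 transcription factors on the list did not move alike. Log2 fold changes were -0.85 (SE 0.285) for Sox18 and -1.29 (SE 0.534) for Sox17, both past the unadjusted threshold, and -0.20 (SE 0.561) for Sox7. They were 0.29 (SE 0.946) for Erg and 0.23 (SE 0.139) for Fli1, and each of these 2 had 2 Flt3 ITD/ITD libraries above the Flt3+/+ maximum. Ptprb, a phosphatase that restrains TIE2 and VE-cadherin, had a log2 fold change of -0.36 (SE 0.143), with 1 Flt3 ITD/ITD library, at 123 RPKM, among the Flt3+/+ values. Kdr, the main VEGF receptor, was the gene in the other direction, at 52.1 to 67.8 RPKM in Flt3+/+ and 62.8 to 103 in Flt3 ITD/ITD ECs (log2 fold change 0.45, SE 0.169). Pecam1, the gene of the sorting antigen, overlapped almost completely (275 ± 73.9 and 285 ± 60.2 RPKM, SD, n = 5, exact permutation p = 0.825).

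The lists for vessel types and endothelial pathways held few genes past the unadjusted threshold. Of 9 venous genes 7 were lower (median -0.38), and 1 was past the unadjusted threshold, Aplnr. This receptor for apelin was 67.6, 63.1, 43.4, 56.4 and 56.2 RPKM in Flt3+/+ and 28.6, 25.6, 36.1, 20 and 7.3 in Flt3 ITD/ITD ECs, without overlap (log2 fold change -1.26, SE 0.366, adjusted p = 0.857). Aplnr was called as lower by DESeq2 (adjusted p = 0.0917). Vwf, which encodes von Willebrand factor, overlapped at 33.3 to 91.3 and 15.4 to 85.7. Of 10 sinusoidal genes 6 were higher (median 0.22) and none was past the unadjusted threshold, and Dnase1l3, a secreted nuclease, spread over 21.6 to 152 RPKM in Flt3+/+ and over 32.9 to 159 in Flt3 ITD/ITD ECs. Of 18 arterial genes 7 were higher (median -0.06), with Sox17 past the unadjusted threshold and Ly6a, which encodes the antigen Sca-1, at 5229 ± 600.02 and 4288 ± 918 RPKM (SD, n = 5, exact permutation p = 0.103). Of 5 Tie and angiopoietin genes 4 were lower (median -0.36), including Tek and Ptprb. With the pair of libraries with blood transcripts left out, the medians were -0.47 for venous, 0.13 for sinusoidal, -0.13 for arterial and -0.32 for Tie and angiopoietin genes.

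Of 19 junction genes, 8 were higher and 11 lower (median -0.09). Tjp1, the scaffold ZO-1 of tight junctions, was 33.9 to 47.1 RPKM in Flt3+/+ and 21.2 to 34.6 in Flt3 ITD/ITD ECs (log2 fold change -0.55, SE 0.204, exact permutation p = 0.0159), with 1 library of each genotype overlapping. Of 23 genes of VEGF signaling, 11 were higher and 12 lower (median -0.03). Spry4, an inhibitor of receptor tyrosine kinase signaling that the pathway induces, was 9.46, 10.3, 11.5, 14.8 and 14.5 RPKM in Flt3+/+ and 54.0, 21.2, 22.5, 24.0 and 26.9 in Flt3 ITD/ITD ECs (log2 fold change 1.19, SE 0.35, adjusted p = 0.868). The groups did not overlap, and replicate 1 of Flt3 ITD/ITD stood apart at the top. Spry4 was called as higher by DESeq2 (adjusted p = 0.0766). Of 16 Notch genes 9 were higher (median 0.12) and none was past the unadjusted threshold. Notch4, the endothelial receptor, overlapped at 5.28 to 9.94 and 3.54 to 9.27 RPKM. Mfng, which modifies Notch receptors, had its top value of 80.3 RPKM in a single Flt3+/+ library. The medians without the pair of libraries were -0.22 for junction, -0.21 for VEGF and 0.21 for Notch genes.

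Bmp4 stood out among 27 genes of BMP and TGF-beta signaling, of which 12 were higher and 15 lower (median -0.10). BMP4 is a secreted factor of vessel and blood development. Its RPKM were 51.8, 70.6, 33.02, 38.9 and 34.7 in Flt3+/+ and 17.1, 12.4, 3.93, 9.48 and 21.5 in Flt3 ITD/ITD ECs. Each Flt3 ITD/ITD library lay below each Flt3+/+ library (log2 fold change -1.82, SE 0.46, adjusted p = 0.72), and no other gene of the list was past the unadjusted threshold. Bmp4 was called as lower by DESeq2 (adjusted p = 0.0116). Id1, a target of BMP signaling in ECs, was 232 to 559.7 RPKM in Flt3+/+ and 340 to 638 in Flt3 ITD/ITD ECs, with overlap (log2 fold change 0.41, SE 0.277). Of 18 niche factors tested, 7 were higher (median -0.10), and Bmp4 alone was past the unadjusted threshold. With the pair of libraries with blood transcripts left out, the median was -0.0019 for BMP and TGF-beta and -0.12 for niche factor genes, with 2 lower genes past the unadjusted threshold in each list. Kitl, which encodes KIT ligand, was 104 to 251 RPKM in Flt3+/+ and 169 to 261 in Flt3 ITD/ITD ECs. Vcam1, which holds stem cells and leukocytes, was 62.3 to 145 and 36.4 to 114, and Il6 was 0.38 to 109 and 0.03 to 77.1, so both genotypes shared most of each range. Thpo, which encodes thrombopoietin, was at most 0.58 RPKM and was not reliably detectable. Ptn, a heparin-binding growth factor, was 11.7 to 138 in Flt3+/+ and 0.68 to 19.7 in Flt3 ITD/ITD ECs (log2 fold change -2.34, SE 1.13, exact permutation p = 0.0635).

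Basement membrane genes had the lowest median of the 29 lists. ECs rest on this sheet of laminins and type IV collagen, which they secrete. Of 17 genes tested, 12 were lower and 5 higher, with a median log2 fold change of -0.44. Past the unadjusted threshold were 3, each lower, where 2.49% of all genes were lower at that threshold. Without the pair of libraries with blood transcripts, 14 of 17 were lower, 3 of them past the unadjusted threshold, with a median of -0.43, and over the alternative settings the median lay between -0.48 and -0.25. Col4a2, a chain of type IV collagen, was 91.9, 133, 81.4, 77.6 and 78.0 RPKM in Flt3+/+ and 59.1, 65.0, 70.4, 61.0 and 77.4 in Flt3 ITD/ITD ECs. The groups did not overlap but nearly touched at 77.6 and 77.4 (log2 fold change -0.46, SE 0.182). Lama4, the laminin chain of vessel walls, had a log2 fold change of -0.88 (SE 0.337), with 1 Flt3+/+ library below the Flt3 ITD/ITD range. Serpinh1, the collagen chaperone HSP47, was 27.9 to 62.7 and 21.9 to 31.5 RPKM (log2 fold change -0.80, SE 0.285).

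Apold1 had the smallest adjusted p of the edgeR test among genes that were higher. It encodes an endothelial protein of the early response to stress and lies at chr6:134981718-134986836 of GRCm38. Its RPKM were 31.3, 20.7, 34.04, 29.9 and 45.2 in Flt3+/+ and 112, 87.3, 117, 89.4 and 89.1 in Flt3 ITD/ITD ECs. Every Flt3 ITD/ITD library lay far above the highest Flt3+/+ library. The log2 fold change was 1.597 (SE 0.231, adjusted p = 0.178), a ratio of mean RPKM of 3.07. DESeq2 called Apold1 as higher (adjusted p = 4.96e-07). Tpm3, a tropomyosin of actin filaments, was 171, 121, 113, 124 and 159 in Flt3+/+ and 243, 273, 254, 256 and 252 in Flt3 ITD/ITD ECs (log2 fold change 0.90, SE 0.155, adjusted p = 0.30). The Flt3 ITD/ITD libraries lay closer together than the Flt3+/+ libraries (SD 10.9 and 25.7, n = 5). Hnrnpa2b1, which binds and sorts RNA, was 252, 343, 251, 275 and 339 in Flt3+/+ and 535, 534, 494, 452 and 485 in Flt3 ITD/ITD ECs (log2 fold change 0.77, SE 0.14, adjusted p = 0.30), again without overlap.

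Immediate-early and heat shock genes, which respond within minutes to stimulation and to the dissociation of tissue, leaned to higher values. Of 27 tested, 22 were higher and 5 lower, with a median log2 fold change of 0.26. Past the unadjusted threshold were 5, each higher, where 2.5% of all genes were higher at that threshold. Without the pair of libraries with blood transcripts the count was again 22, with 4 past the unadjusted threshold and a median of 0.49, and over the alternative settings the median lay between 0.12 and 0.49. Klf6, a zinc finger factor of injured vessels, was 77.7, 35.5, 72.6, 94.9 and 87.0 RPKM in Flt3+/+ and 115, 112, 148, 157 and 101 in Flt3 ITD/ITD ECs, without overlap (log2 fold change 0.81, SE 0.252). Hspa8, a constitutive heat shock protein, was 935 to 1933 and 1631 to 3581 (log2 fold change 0.87, SE 0.272, exact permutation p = 0.0635). Zfp36, which destabilizes cytokine mRNAs, the inducible chaperone Hspa1b and the matrix protein Cyr61 had log2 fold changes of 0.48 (SE 0.173), 0.90 (SE 0.382) and 1.16 (SE 0.517), all with overlap. Fos, the gene most used as a sign of dissociation, overlapped at 586 to 1146 and 613 to 1401 RPKM. The part of tissue dissociation in these values was not tested.

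Genes of glycolysis and hypoxia held 3 higher genes past the unadjusted threshold among 22 tested, of which 12 were higher (median 0.12). Pkm, the pyruvate kinase of glycolysis, was 31.8, 33.8, 30.9, 58.7 and 52.9 RPKM in Flt3+/+ and 121, 106, 74.5, 66.7 and 113 in Flt3 ITD/ITD ECs, without overlap (log2 fold change 1.19, SE 0.261, adjusted p = 0.524). Pkm was called as higher by DESeq2 (adjusted p = 0.00452). Ldha, which turns pyruvate into lactate, was 112 to 216 and 191 to 381 (log2 fold change 0.64, SE 0.245), and Pdk1, which keeps pyruvate from the mitochondria, had a log2 fold change of 1.92 (SE 0.821), both with overlap. Of 14 genes of the endoplasmic reticulum stress response, 10 were higher (median 0.21). Asns, an asparagine synthetase induced when amino acids run short, was 0.50 to 10.7 and 4.09 to 57.5 (log2 fold change 2.33, SE 0.842, exact permutation p = 0.0317), with 4 of the 5 Flt3 ITD/ITD values beyond the Flt3+/+ range. Chac1, a glutathione-degrading target of the same response, overlapped at 0.08 to 2.74 and 0.65 to 8.82 RPKM. The medians without the pair of libraries were 0.17 for glycolysis and hypoxia, with 2 higher genes past the unadjusted threshold, and 0.16 for the endoplasmic reticulum stress response.

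**Figure D4:**
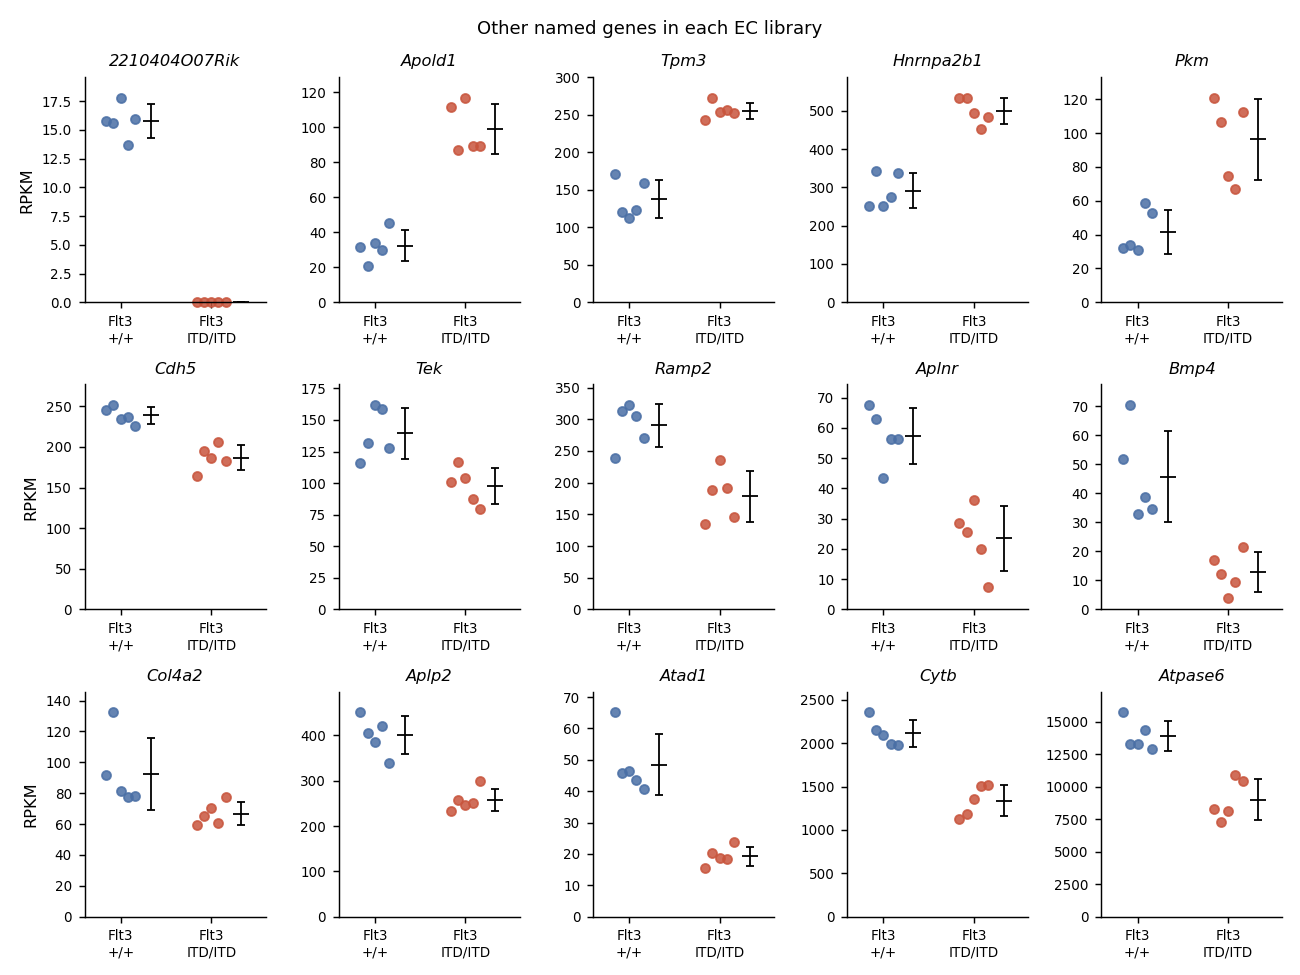
RPKM of 15 genes in each EC library (points) with the mean and SD of 5 mice per genotype (bars), each panel on its own linear axis from 0. In every panel except Tek the genotypes did not overlap. 2210404O07Rik, at 0 in all Flt3 ITD/ITD libraries, was the gene that passed the adjusted threshold in the edgeR test.

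Transcripts of mitochondrial sequence were lower in Flt3 ITD/ITD ECs. Cytb, of respiratory complex III, was 2359, 2147, 2096, 1988 and 1984 RPKM in Flt3+/+ and 1127, 1185, 1355, 1513 and 1517 in Flt3 ITD/ITD ECs (log2 fold change -0.65, SE 0.107, adjusted p = 0.287). Atpase6, of the ATP synthase, had a mean of 13907 ± 1161 and 8994 ± 1586 (SD, n = 5) and Cox2, of complex IV, of 9894 ± 1229 and 6096 ± 1388, with log2 fold changes of -0.61 (SE 0.114) and -0.68 (SE 0.151). Neither overlapped between genotypes. Together the 3 genes took between 2.21% (exact binomial 95% interval 2.20 to 2.21) and 2.71% (2.70 to 2.72) of all counts in Flt3+/+ libraries and between 1.24% (1.24 to 1.25) and 1.86% (1.85 to 1.86) in Flt3 ITD/ITD libraries. These intervals treat each read as independent. PCR copies of a molecule were counted like separate molecules, so the intervals understate the counting error of molecules. They also do not cover the spread between mice. Gm10222, at chr1:24612407-24612700 of GRCm38, had a log2 fold change of -0.68 (SE 0.145) and is annotated as a pseudogene, and RefSeq pairs Atpase6 with a pseudogene near it on chromosome 1. Reads of mitochondrial transcripts and of their nuclear copies cannot be told apart here, so these genes do not count as separate observations. Of 21 nuclear genes of oxidative phosphorylation, 6 were higher and 15 lower (median -0.11, and -0.031 without the pair of libraries with blood transcripts), none past the unadjusted threshold. Atp5c1, of the ATP synthase, and Sdha, of complex II, overlapped, with log2 fold changes of -0.22 (SE 0.188) and 0.39 (SE 0.34).

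Several abundant genes outside the lists were also lower without overlap. Atad1, which clears misplaced proteins from the mitochondrial surface, was 65.2, 45.9, 46.5, 43.7 and 40.6 RPKM in Flt3+/+ and 15.6, 20.3, 18.6, 18.3 and 23.7 in Flt3 ITD/ITD ECs (log2 fold change -1.32, SE 0.238, adjusted p = 0.30). Aplp2, of the amyloid precursor family, was 338 to 451 and 233 to 298 (log2 fold change -0.60, SE 0.113). Rab6a, a GTPase of Golgi traffic, was 33.9 to 80.4 and 15 to 28.8 (log2 fold change -1.4, SE 0.319), and Otud4, a deubiquitinase, was 9.85 to 22.2 and 1.6 to 7.22 (log2 fold change -1.80, SE 0.414). Atad1, Rab6a and Otud4 were called as lower by DESeq2 (adjusted p = 1.1e-07, 0.00569 and 0.0051). For Aplp2 the adjusted p of DESeq2 was 7.27e-05, without the 2-fold difference that a call required.

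Of 18 genes of lipid and solute transport, 7 were higher (median -0.03), and 2 were past the unadjusted threshold, both lower. Fabp5, which carries fatty acids, was 362, 696, 677, 375 and 450 RPKM in Flt3+/+ and 352, 253, 216, 328 and 260 in Flt3 ITD/ITD ECs, with no overlap (log2 fold change -0.86, SE 0.253). Aqp1, a water channel, was 133 to 233 and 76.9 to 151 (log2 fold change -0.69, SE 0.241, exact permutation p = 0.0397). Of 16 antioxidant genes 7 were higher (median -0.09). The medians without the pair of libraries were -0.13 for transport and -0.035 for antioxidant genes. Prdx1, a peroxiredoxin, was 895 to 1068 in Flt3+/+ and 825 to 867 in Flt3 ITD/ITD ECs, a small but separated difference (log2 fold change -0.23, SE 0.101), and Txnrd1, a thioredoxin reductase, overlapped at 7.74 to 22.1 and 11.1 to 22.6.

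Some genes at no more than 1.70 RPKM in any Flt3+/+ library were higher in each Flt3 ITD/ITD library. Mipol1 never exceeded 3 counts in a Flt3+/+ library and was 12.5, 11.8, 6.61, 16.3 and 0.36 RPKM in Flt3 ITD/ITD ECs, with 1 library far below the others (log2 fold change 7.15, SE 1.3). Map2k3os had no count in Flt3+/+ ECs and was 21.6, 0.90, 1.15, 2.33 and 10.4 RPKM in Flt3 ITD/ITD ECs, at least 52.3-fold higher relative to 3 counts per Flt3+/+ library (adjusted p = 0.467). It is annotated antisense at chr11:60920917-60931867 of GRCm38, and since the library kit is not stated to keep strand, its reads cannot be told apart from those of overlapping transcripts. Wdr20, a cofactor of deubiquitinases, was 0.03 to 0.70 and 3.29 to 18.0 RPKM (log2 fold change 5.35, SE 1.03), Marcksl1, which binds actin and calmodulin, was 0.34 to 1.70 and 5.06 to 17.5 (log2 fold change 3.52, SE 0.721), and Sdf2l1, of the chaperone machinery of the endoplasmic reticulum, was 0.47 to 1.65 and 3.71 to 10.1 (log2 fold change 2.83, SE 0.607). The noncoding gene Gm12505 was 0.10 to 0.47 and 1.01 to 3.30. None of these genes passed the adjusted threshold in the edgeR test. DESeq2 called each of them as higher (adjusted p from 3.48e-09 for Mipol1 to 0.000781 for Gm12505). The higher and lower genes named by the rule on separated groups were chosen because their groups did not overlap. Their separation therefore carries no p-value of its own.

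Cell cycle genes more often had lower values, but not without the pair of libraries with blood transcripts. Of 23 tested, 7 were higher (30.4%) and 16 lower (median -0.30), and without that pair 11 were higher and 12 lower, with a median of -0.01. Mcm5, of the replicative helicase, was 1.55 to 7.30 RPKM in Flt3+/+ and 0.70 to 3.15 in Flt3 ITD/ITD ECs (log2 fold change -1.79, SE 0.736), and Kif11, a spindle motor, was 0.51 to 0.94 and 0.85 to 3.28 (log2 fold change 1.34, SE 0.587). Of 32 DNA repair genes 15 were higher and 17 lower (median -0.02), and without the pair of libraries 13 of 33 were higher and 20 lower (median -0.26). Blm, a helicase of recombination, had 6.45 RPKM in 1 Flt3 ITD/ITD library and at most 1.65 in the others, and Mlh3, a mismatch repair protein, was 0.10 to 2.12 and 0.11 to 0.43. Of 28 apoptosis genes 13 were higher (median -0.02) and none was past the unadjusted threshold, and without the pair of libraries 16 were higher (median 0.071). The death receptor Fas was 122 to 296 and 206 to 377 RPKM (exact permutation p = 0.111), and Apaf1, the core of the apoptosome, was 3.29 to 11.7 and 4.84 to 13.7 (exact permutation p = 0.0952).

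Hemostasis, endothelin and nitric oxide, and leukocyte adhesion genes held none past the unadjusted threshold. Of 20 hemostasis genes 8 were higher (median -0.23), of 11 endothelin and nitric oxide genes 4 (median -0.15), and of 13 adhesion genes 7 (median 0.05). The last 2 medians turned without the pair of libraries with blood transcripts, with 7 of 11 endothelin and nitric oxide genes higher (median 0.076) and 5 of 13 adhesion genes higher (median -0.088), while the median of hemostasis genes was -0.26. F8, the clotting factor that ECs make, was 0.35 to 5.95 and 2.04 to 14.4 RPKM (exact permutation p = 0.0476), and Tfpi, an inhibitor of clotting, was 39.6 to 169 and 41.2 to 378. Ece1, which activates endothelins, and Gch1, which makes a cofactor of nitric oxide synthase, had log2 fold changes of 0.43 (SE 0.271) and 1.11 (SE 0.797). The adhesion molecules Jam2 and Cd34 had log2 fold changes of -0.33 (SE 0.176) and -0.30 (SE 0.181), and the ranges of all 4 genes overlapped.

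**Figure D5:**
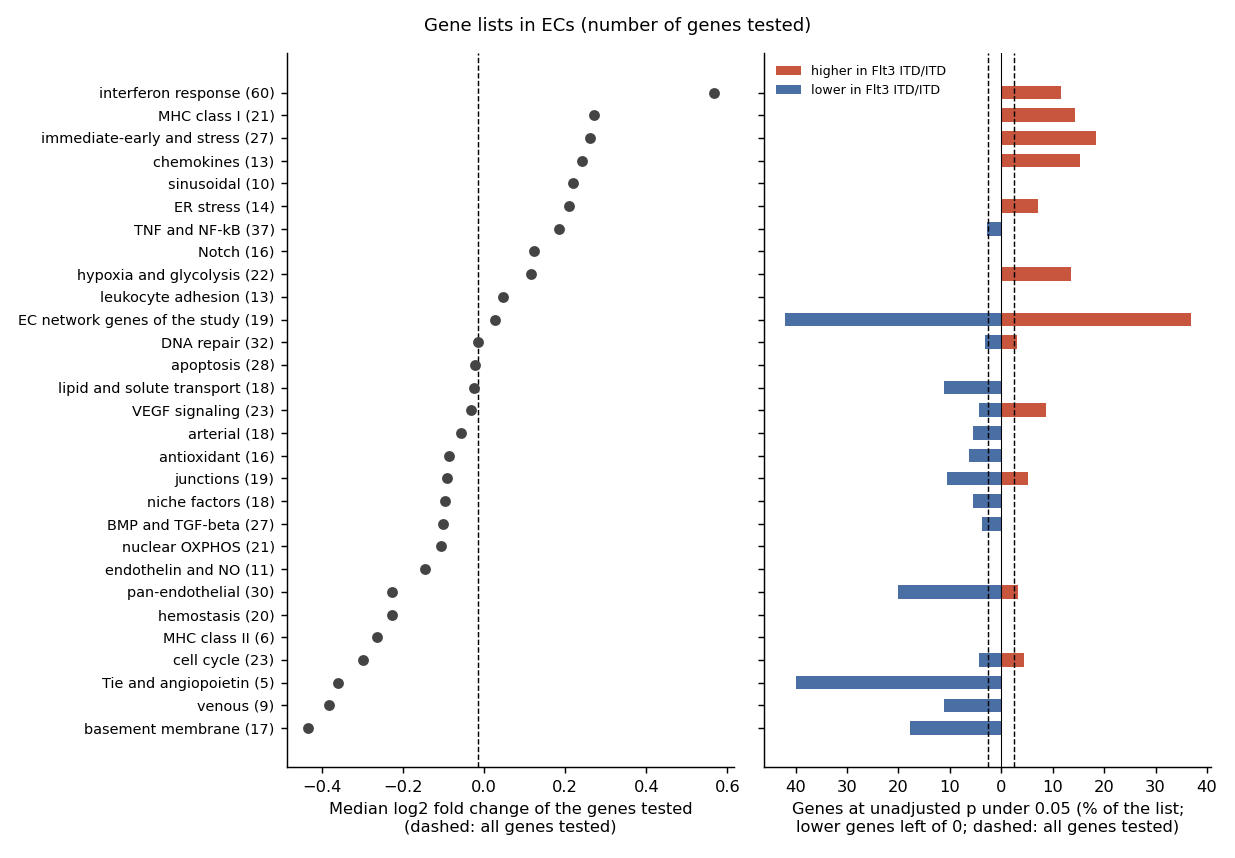
Median log2 fold change (left) and share of genes at an unadjusted p below 0.05 in percent (right, lower genes to the left of 0) for each of 29 gene lists in ECs, with the number of genes tested in parentheses. Dashed lines give the values over all 12351 genes. Interferon response lies farthest right, at 0.57, and basement membrane farthest left, at -0.44.

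Of 73 genes that the study placed in networks from its own comparison of these ECs, 72 were in the table and 19 passed the filter on low counts. At the unadjusted threshold 7 were higher and 8 were lower. The median log2 fold change was 0.026 over all 10 libraries and -0.33 without the pair with blood transcripts. That list was chosen on these samples, so its counts are not independent evidence. Trp53inp1, a stress protein induced by p53, was 19.1, 16.9, 35.3, 5.98 and 26.6 RPKM in Flt3+/+ and 0.94, 6.32, 3.55, 1.86 and 3.23 in Flt3 ITD/ITD ECs (log2 fold change -2.61, SE 0.603, adjusted p = 0.624). A single library of each genotype overlapped. By DESeq2, 19 members of the list were called as higher and 27 as lower, with Trp53inp1 among the latter (adjusted p = 0.00357).

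Whether the genotype effect in ECs differed from that in the other populations was tested directly, with all 28 libraries in a single model. Against MSCs 64 of 16897 genes (0.379%) passed an adjusted p below 0.1, and 47 of them had the higher effect in ECs. With MNC libraries left out of the model 1 gene passed, Akr1c14, a steroid-metabolizing enzyme, which had means of 24.7 and 33.6 RPKM in Flt3+/+ and Flt3 ITD/ITD ECs, with overlap, and of 4.49 and 0.006 in MSCs. Its highest EC value, 74.5, came from the Flt3 ITD/ITD library with neutrophil transcripts, and without the pair of libraries with blood transcripts its log2 fold change in ECs was -0.33. The other 63 genes passed only with the MNC libraries in the model. Eif2ak2 was among the 64, with means of 4.62 and 14.0 RPKM in Flt3+/+ and Flt3 ITD/ITD ECs and of 5.71 and 3.78 in MSCs (difference of log2 fold changes 2.18, SE 0.502, adjusted p = 0.0798). Ifit2 and Apold1 were not, with differences of 1.73 (SE 0.98) and 0.44 (SE 1.29). Of 53 interferon genes tested in MSCs, 44 were higher in Flt3 ITD/ITD mice (median 0.74), where 52.1% of all genes were, and in MNCs the count was 38 of 60 (median 0.12), where 49.5% of all genes were. Against MNCs 2 genes (0.0118%) passed. Socs2, a feedback inhibitor of cytokine signaling, had means of 69.3 and 78.6 RPKM in ECs and of 1.095 and 16.3 in MNCs (difference of log2 fold changes -3.56, SE 0.501, adjusted p = 0.00329). Serpinh1 had means of 46.2 and 26.1 in ECs and of 0.0125 and 0.302 in MNCs (difference -5.06, SE 0.748), so that its MNC level was near the limit of detection.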

How the data were processed

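RNA was sequenced from sorted ECs of 5 Flt3+/+ and 5 Flt3 ITD/ITD mice, with 100 cells per library, amplified over 15 cycles with the SMARTer kit and read as single 51-base reads. Genotype and replicate were taken from the sample titles. The labels do not pair the mice. The study used littermate controls when it could, but which libraries shared a litter or an experiment is not given in the sources used here, so p-values measure the spread between mice without such terms. The authors deposited counts per gene, estimated with RSEM after Bowtie alignment to mm10 transcripts and without reads of multiple positions, as whole numbers that were not normalized. The authors deposited RPKM for the same genes, rounded to 2 decimals. Genes that share sequence can lose reads to that filter.

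Counts were tested in R 4.3.3 with the quasi-likelihood test of edgeR 4.0.16 (TMM factors, filterByExpr, no covariates) over the 10 EC libraries, with Benjamini-Hochberg adjustment over 12351 genes, while 12900 genes did not pass the filter. The ratio of mean RPKM used a pseudocount of 0.01. Single genes were also compared by exact two-sided permutation of RPKM, whose smallest possible p with 5 against 5 is 0.00794. These permutation p are not adjusted for the number of genes. For genes named by a small p or after their values were seen, they are descriptive only. Comparisons with MSCs and MNCs used the same test over 28 libraries. A floor of 3 counts was used for bounds. The procedure was also run on simulated data, whose outcome is not given here and supports none of the results. Alternatives were DESeq2 1.42.0, the exact test of edgeR, limma-voom 3.58.1 with quality weights, other size factors and filters, a replicate block, a leukocyte covariate, all libraries in the fit, and leaving out each library.

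Members and the 29 topic lists and 13 marker lists were chosen with earlier results of these data known. Genes named are Flt3, the markers, the gene called, the 10 higher and 10 lower genes of smallest p whose libraries did not overlap, the 2 genes of smallest p of each topic list, and 5 genes the study names (Tnf, Kitl, Vcam1, Thpo and Il6). Irf9, Usp18, Ifit1, Isg15, Rsad2, H2-D1, Kdr, Sox18, Col4a2, Serpinh1, Zfp36, Hspa1b, Cyr61, Fos, Pdk1, Akr1c14, Socs2, Oas3, Gbp3, Irf7, Sox7, Erg and Fli1 were named after their values were seen. Of 81 genes named by the rule, 77 were placed with GENCODE M21 and 2 through a RefSeq synonym. A few genes that the rule names are left out of the text.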

Additional observations from a re-analysis of the deposited data

Results flagged for a closer look

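In 240 groups of 5 libraries, over 104 genes and 16 sums, the highest or lowest library was far from the other 4 in 31 (12.9%). The threshold marks about 1 in 20 groups of normally distributed values, and many values here are near 0 or skewed. Most sums over blood cell markers stood apart in the same pair of libraries. Flt3 ITD/ITD replicate 2 had a neutrophil sum of 30230 RPKM (next 94.8), an erythroid sum of 2621, a macrophage sum of 211 and Ptprc at 4.57. Flt3+/+ replicate 1 had a neutrophil sum of 1342, an erythroid sum of 4840 (next 360) and a megakaryocyte sum of 40.9. The T and NK cell sum was 11.5 in Flt3+/+ replicate 3, the osteoblast sum 430.1 in Flt3 ITD/ITD replicate 5, and the lymphatic sum 66.3 in Flt3 ITD/ITD replicate 4 and 38.8 in Flt3+/+ replicate 5. Ptprc in Flt3+/+ replicate 2 was 0.05 RPKM, where the others had at most 0.01.

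Single genes stood apart as follows, in RPKM. In Flt3+/+ replicate 1, Atad1 was 65.2, Oas3 0.31 and Blm 0. In Flt3+/+ replicate 2, Dnase1l3 was 152, Mfng 80.3, Txnrd1 22.1 and Col4a2 133. In Flt3+/+ replicate 3, Ptn was 138, Psmb8 169, Pdk1 5.09 and H2-Eb1 12.2. In Flt3+/+ replicate 4, Thpo was 0.58. Among Flt3 ITD/ITD libraries, Spry4 was 54.0 in replicate 1, Traf1 3.15 and Akr1c14 74.5 in replicate 2, Ptprb 123 and Blm 6.45 in replicate 3, Thpo 0.04 in replicate 4 and Mcm5 3.15 in replicate 5.

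For several genes named in the report the genotype effect in ECs differed from that in MSCs by a test of the difference over all 28 libraries. The differences of log2 fold changes were 9.41 for Akr1c14 (adjusted p = 0.00101), -18.5 for 2210404O07Rik (adjusted p = 0.0499), 8.54 for Mipol1 (0.0798), 2.18 for Eif2ak2 (0.0798) and 2.65 for Kif11 (0.0975). The size for 2210404O07Rik has no meaning as a fold, since Flt3 ITD/ITD ECs and Flt3+/+ MSCs both had no count. With EC and MSC libraries alone in the model Akr1c14 passed and the other 4 did not. Against MNCs the effect differed for Serpinh1 (-5.06, adjusted p = 0.00383) and Socs2 (-3.56, adjusted p = 0.00329).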

How the results depend on the processing

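The number of genes called (1) depended on the test. DESeq2 called 354, the exact test of edgeR 16, either of these 354, limma-voom with quality weights 4, and the fit of all 28 libraries 275. It was 0 without the filter on low counts, with the leukocyte covariate, with a sex covariate, without both libraries with blood transcripts (these last 2 were chosen after seeing the data), and with any 1 library left out (0 to 0). Genes at an unadjusted p below 0.05 (616) were 1465 with DESeq2, 2262 with all 28 libraries and 2054 without the filter. Over the 22 alternatives the adjusted p of 2210404O07Rik ranged from 1.39e-20 to 0.9997. RLE and upper quartile factors moved the median log2 fold change of all genes to -0.02 and 0.02.

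With replicate number as a block, 0 genes were called and 568 were at an unadjusted p below 0.05. Deviations of libraries with the same number correlated between -0.02 and 0.04, and 2 of 5 correlated best with their own number, so the numbers were not taken to pair mice.

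Genes whose effect differed from MSCs (64) were 12 without the filter, 1 with the replicate block, 1 with EC and MSC libraries only, and 10 to 125 with 1 EC library left out, the lowest without Flt3+/+ replicate 5. Against MNCs (2) they were 5 with EC and MNC libraries only and 2 to 12 with 1 library left out. These models without the third population were also chosen after seeing the data. The log2 fold change of Pecam1, 0.07, changed sign with the leukocyte covariate (-0.040) and without both libraries with blood transcripts (-0.12), and lay between -0.046 and 0.19 with 1 library left out. Of 100 named genes tested, 5 changed sign under some setting, and 4 of them were chosen after their values were seen. Rsad2 (0.04) was -0.32 with limma-voom, -0.17 with the replicate block, -0.36 with the leukocyte covariate, -0.56 without both libraries with blood transcripts and -0.37 to 0.28 with 1 library left out. In the same order of the last 3 settings Akr1c14 (0.45) was -0.024, -0.33 and -0.097 to 0.91. Sox7 (-0.20) lay between -0.65 and 0.093 with 1 library left out, and Erg (0.29) between -0.30 and 0.61, with -0.12 under the sex covariate. The cause of these shifts was not tested. Standard errors of log2 fold changes were largest at 1 to 5 RPKM (median 1.08), where differences are hardest to detect.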
